A study of Homo sapiens with 3 samples.

Results

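The widest domains of histone H3 lysine 27 acetylation (H3K27ac) in SC1 cells were described, together with the positions of the acetyltransferase CREBBP inside them. Deposited H3K27ac regions on chromosomes 1 to 22 and X that lay no more than 12.5 kb apart were joined into 13232 domains. Domains were chosen by their measured H3K27ac-covered length, and the top 5%, 662 domains made of 2438 of the 18263 regions, are called wide domains. The remaining 12570 domains, made of 15825 regions, are called other domains. SC1, labelled DLBCL (diffuse large B-cell lymphoma, an aggressive tumour of mature B cells), is an established human cell line and was grown in RPMI1640 with serum. The series held 3 samples of it, a chromatin immunoprecipitation (ChIP) for CREBBP, a ChIP for H3K27ac and an input, with 1 sample in each group and with no treatment named in the labels. The terms DMSO and rep2 occur in the names of the peaks, and no label says what they stand for. The input was not analysed here.

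H3K27ac is placed on nucleosomes of active promoters and enhancers, chiefly by CREBBP and its paralogue EP300, which sequence-specific transcription factors recruit to DNA. Clusters of neighbouring acetylated regions form the widest domains, and in B cells such clusters are known at genes of B-cell identity. CREBBP is among the genes most often mutated in lymphomas of germinal-centre origin.

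The sequences below belong to wide domains whose CREBBP summits are described at single genes. They were chosen after the values were seen, and gene positions on hg19 are approximate. Of 12 microRNA genes looked up, only MIR142 and MIR650 lay in a wide domain, and the mature RefSeq sequences are given with the seed, bases 2 to 8, in capitals. The microRNA miR-142 is abundant in blood cells, and MIR650 lies among the immunoglobulin lambda variable genes. The 3 seeds differ from one another.
hsa-miR-142-5p: cAUAAAGUagaaagcacuacu
hsa-miR-142-3p: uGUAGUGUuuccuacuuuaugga
hsa-miR-650: aGGAGGCAgcgcucucaggac

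Promoters are shown for genes whose start lay in a wide domain, as the 250 bases before the RefSeq start on the gene's own strand, build GRCh38.p14. TCF3 (an E-protein transcription factor), SYK (a kinase of the B-cell receptor) and BCL2 (an inhibitor of apoptosis) each had a stronger CREBBP summit within 1 kb of the start. H4C12, a histone H4 gene, lay at the CREBBP summit of most fragments in the widest H3K27ac region that formed a domain alone. GCSAM, a germinal-centre signalling adaptor, had the summit of most fragments of its domain near its start. EBF1, a transcription factor that specifies B cells, is shown as a start in a wide domain with no CREBBP summit. The windows are chr19:1652616-1652865 (minus strand), chr9:90801350-90801599 (plus), chr18:63319770-63320019 (minus), chr6:27831561-27831810 (minus), chr3:112133249-112133498 (minus) and chr5:159097957-159098206 (minus). Capitals mark matches of the motifs searched.
TCF3: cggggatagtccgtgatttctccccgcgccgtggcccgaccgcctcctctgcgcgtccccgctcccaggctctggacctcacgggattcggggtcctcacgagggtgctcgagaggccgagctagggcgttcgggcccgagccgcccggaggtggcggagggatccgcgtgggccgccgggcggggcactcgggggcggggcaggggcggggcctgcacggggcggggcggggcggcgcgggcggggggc
SYK: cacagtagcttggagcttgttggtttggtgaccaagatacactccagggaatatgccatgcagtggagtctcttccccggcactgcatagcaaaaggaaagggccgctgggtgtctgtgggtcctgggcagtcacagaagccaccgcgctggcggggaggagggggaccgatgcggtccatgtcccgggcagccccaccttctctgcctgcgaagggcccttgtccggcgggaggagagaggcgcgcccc
BCL2: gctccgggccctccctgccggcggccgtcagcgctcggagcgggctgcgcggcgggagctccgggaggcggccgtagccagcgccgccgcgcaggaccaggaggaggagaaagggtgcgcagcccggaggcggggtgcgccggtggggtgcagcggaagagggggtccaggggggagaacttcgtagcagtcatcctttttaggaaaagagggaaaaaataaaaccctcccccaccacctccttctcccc
H4C12: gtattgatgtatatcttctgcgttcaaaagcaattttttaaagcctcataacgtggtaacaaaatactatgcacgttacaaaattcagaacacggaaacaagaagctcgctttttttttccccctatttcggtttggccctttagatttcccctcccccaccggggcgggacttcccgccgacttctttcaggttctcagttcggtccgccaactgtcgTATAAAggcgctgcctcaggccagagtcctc
GCSAM: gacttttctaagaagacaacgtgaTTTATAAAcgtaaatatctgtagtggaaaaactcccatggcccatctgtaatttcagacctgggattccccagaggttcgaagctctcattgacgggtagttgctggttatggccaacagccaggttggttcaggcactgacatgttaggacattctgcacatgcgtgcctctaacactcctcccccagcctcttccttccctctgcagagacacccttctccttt
EBF1: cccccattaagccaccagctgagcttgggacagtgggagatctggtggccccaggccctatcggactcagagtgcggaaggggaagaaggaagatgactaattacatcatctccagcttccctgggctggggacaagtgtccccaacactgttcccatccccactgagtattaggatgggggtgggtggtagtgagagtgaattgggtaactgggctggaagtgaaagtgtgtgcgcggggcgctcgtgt

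Both strands were searched for the octamer ATGCAAAT, the ETS site GAGGAAGT, the E-box CAGGTG and the cyclic AMP response element TGACGTCA, and, added after the sequences were seen, for TATAAA. None of the first 4 was present in these 6 windows. Among all 27305 promoters of the table, windows of the same length held the octamer in 1.66%, the ETS site in 2.13%, the E-box in 17.5% and the response element in 1.77%. TATAAA was present in 2 of the 6, H4C12 and GCSAM, against 11.1% of all promoters. In GCSAM its matches on the 2 strands overlap. The absence of a match says only that these letters are not in this window.

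Wide domains had a median of 11.6 kb under H3K27ac (interquartile range 9.40 to 15.5 kb) within a median span of 24.6 kb, and other domains a median of 1.54 kb within 1.58 kb. They made up 9.16 Mb, 26.8% of all H3K27ac-covered length. The median wide domain had 3 regions, 515 had 2 to 5, 92 had 6 or more and 55 were single regions. Their median H3K27ac fold, the authors' enrichment averaged over covered length, was 5.79, against 4.97 in other domains. These values chose or follow from the choice of the domains and are descriptions. The narrowest wide domain, upstream of MYO1E, covered 8027 bp, and the next domains just outside covered 8015 bp (at SNHG3 and RCC1), 8013 bp and 8010 bp, so nothing separates the groups at the threshold.

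Nearly every wide domain held a CREBBP summit, but most of these summits did not reach q at most 0.05. A summit is the single base at which the authors' peak caller placed the top of a CREBBP peak, and it was counted where it fell inside a region of the domain. At least 1 summit lay in 647 of 662 wide domains, 97.7% (95% Clopper-Pearson interval 96.3 to 98.7%), and in 6358 of 12570 other domains, 50.6% (49.7 to 51.5%). The share of all domains was 52.9%. A stronger summit, of q at most 0.05, lay in 370 wide domains, 55.9% (52.0 to 59.7%), and in 1513 other domains, 12.04% (11.5 to 12.6%), against 14.2% of all domains. Only 3901 of the 215598 CREBBP peaks used, and 24.4% of the summits in wide domains, had such a q. A summit of 20 or more fragments lay in 418 wide domains, 63.1%, and in 2928 other domains, 23.3%, against 25.3% of all domains. Fragment numbers were worked out from the deposited fold and p, and intervals cover counting error only, treat summits as independent and say nothing of other cultures.

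Several CREBBP summits per domain were the usual state of wide domains. At least 5 summits were present in 142 of the 662 wide domains, in 14 of the 12570 other domains and in 156 of all 13232 domains. At least 2 stronger summits were present in 114 wide domains, 17.2%, and in 68 other domains, 0.541%, against 1.375% of all domains. Neighbouring summits in a wide domain were a median of 4.50 kb apart (interquartile range 1.93 to 9.84 kb), and 26.2% of 1587 neighbours lay under 2 kb apart. Across the 662 wide domains, covered length and number of summits had a Spearman rho of 0.522, and covered length and stronger summits 0.254. All these points come from the same pair of libraries, and a longer domain has more room for summits.

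**Figure D1:**
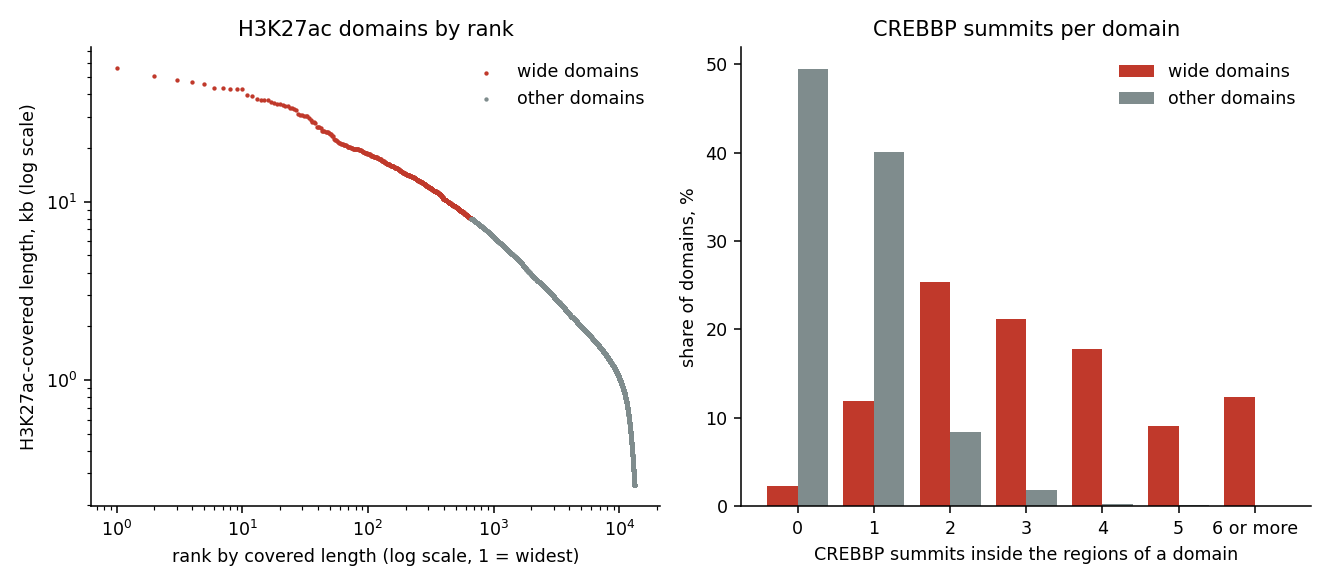
Left, H3K27ac-covered length in kb of each domain against its rank, both on log scales, for the 662 wide domains (red) and the 12570 other domains (grey). Right, the share of domains in percent by the number of CREBBP summits inside their regions. Covered length falls without a step at the threshold near 8.03 kb. At least 1 summit, of any q, lies in 97.7% of wide domains, against 50.6% of other domains.

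Per unit of length the order was the other way round for all summits. Wide domains held 2234 summits, or 0.244 per kb of covered length, and other domains 8030, or 0.321 per kb, a ratio of 0.759 (95% interval 0.724 to 0.796). This ratio does not allow for region width, and summits per kb fell with width in both groups. Between regions under 1 kb and regions of 4 to 8 kb, they fell from 0.311 to 0.2385 in wide domains. In other domains they fell from 0.361 to 0.273. For stronger summits the densities were 0.0596 per kb in wide domains, from 546 summits, and 0.0635 per kb in other domains, from 1586. That ratio was 0.940 with an interval of 0.851 to 1.04, so a difference in stronger summits per kb was not detectable at these counts. Among the wide domains themselves, split into 4 equal groups from the widest to the narrowest, summit density was 0.234, 0.235, 0.257 and 0.270 per kb. The share with a stronger summit was 71.7%, 55.2%, 47.9% and 48.8% over the same 4 groups.

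Regions of like width were then set side by side. Over all regions, 46.3% held a summit and 11.1% a stronger one. Of regions 1 to 2 kb wide, 39.8% of those in wide domains (35.6 to 44.1%, n = 523) and 45.7% of those in other domains (44.6 to 46.9%, n = 7190) held a summit. At 2 to 4 kb the shares were 61.8% in wide domains (58.0 to 65.5%) and 67.0% in other domains (65.3 to 68.6%). At 4 to 8 kb they were 82.9% in wide domains and 85.9% in other domains, with intervals that overlap. For stronger summits the shares at 4 to 8 kb were 33.2% in wide domains (29.3 to 37.3%) and 32.2% in other domains (28.5 to 36.1%). For any summit the share was the lower one in wide domains in each width class below 8 kb, with intervals that do not overlap only at 1 to 2 kb. For stronger summits the intervals overlapped in each of these classes. Median widths within these bins still differed, at 5.55 kb in wide domains and 4.85 kb in other domains between 4 and 8 kb.

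**Figure D2:**
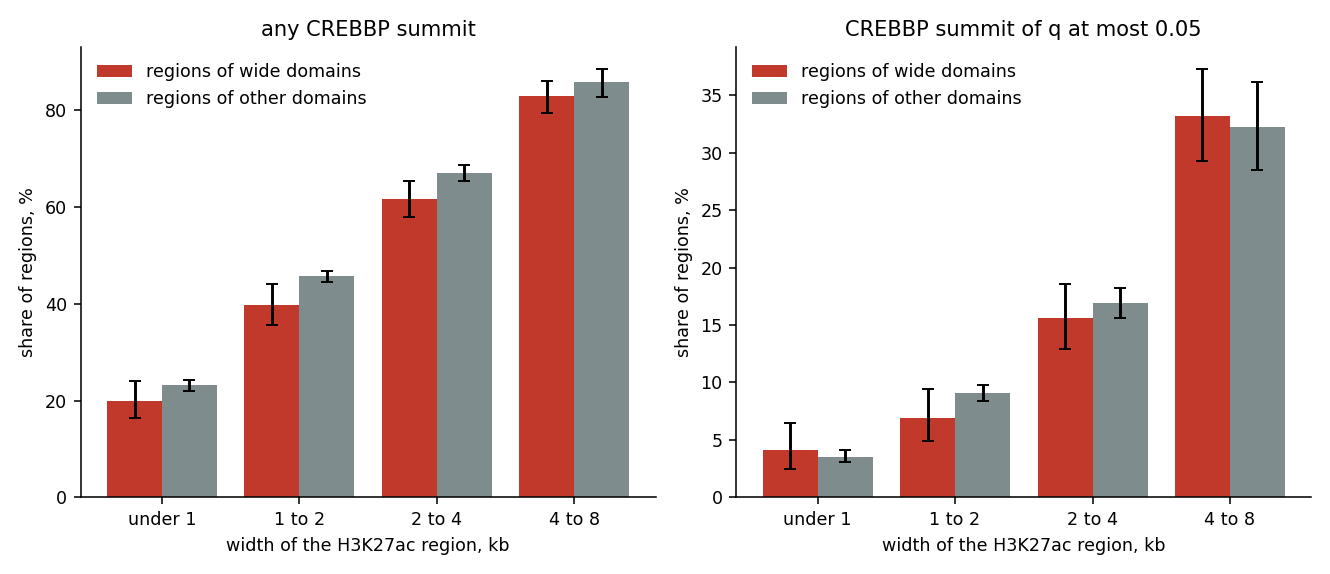
Share of H3K27ac regions in percent that hold any CREBBP summit (left) or a stronger one (right), by region width in kb, for regions of wide domains (red) and of other domains (grey). Bars are shares and lines are 95% Clopper-Pearson intervals. The share rises with width in both groups, and at 4 to 8 kb it is 82.9% in wide domains and 85.9% in other domains for any summit.

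Summits in wide domains had about the same median fragments and fold as summits in other domains. Stronger ones made up 24.4% of summits in wide domains and 19.75% of those in other domains. The median summit had 16 fragments over a background of 6.47 in wide domains and 17 fragments over a background of 7.39 in other domains. The median CREBBP fold was 2.26 in wide domains and 2.15 in other domains, and the highest was 10.4 in wide domains and 11.4 in other domains. At like background the groups parted where background was high. At a background of 10 to 20 fragments, 33.0% of summits in wide domains were stronger ones (29.0 to 37.3%), against 19.3% in other domains (17.8 to 20.9%), with median folds of 1.998 in wide domains and 1.85 in other domains. At 3 to 5 fragments the shares were 15.6% in wide domains (12.6 to 19.1%) and 19.6% in other domains (17.5 to 21.8%), and the median fold was 2.34 in both. At 20 to 50 fragments they were 46.7% of 45 summits in wide domains (31.7 to 62.1%) and 26.4% of 129 in other domains (18.99 to 34.8%), with intervals that overlap. Between 5 and 10 fragments, the class with the most summits of wide domains (819), they were 25.3% in wide domains (22.3 to 28.4%) and 21.1% in other domains (19.6 to 22.6%).

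**Figure D3:**
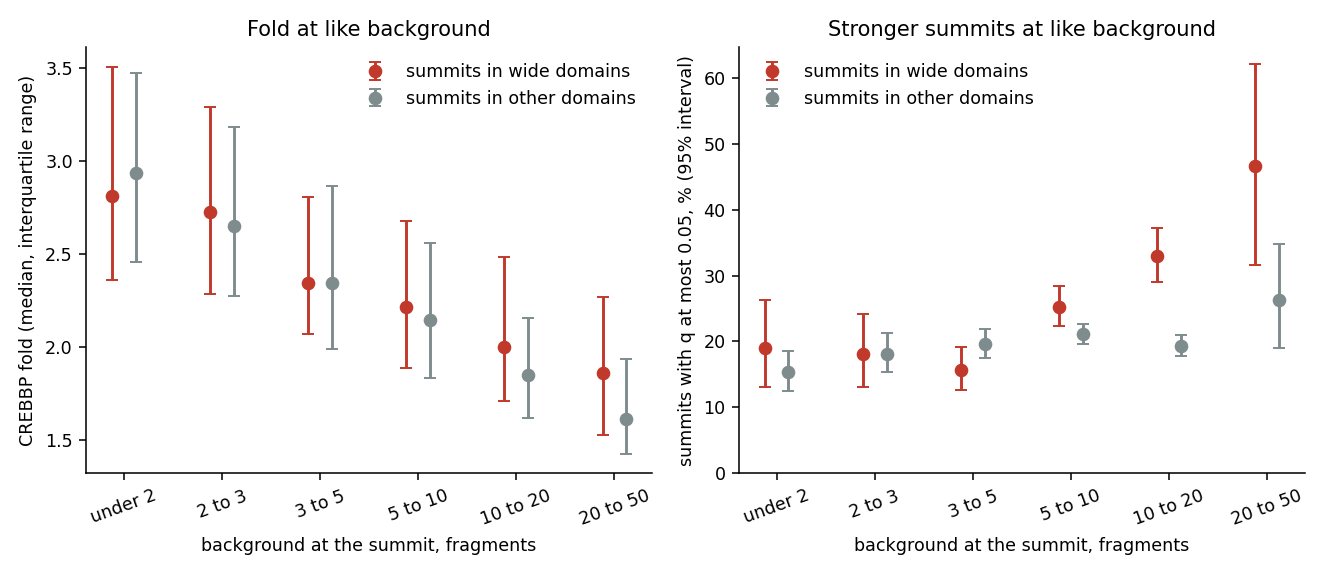
CREBBP fold (left, medians with interquartile ranges) and share of summits with q at most 0.05 in percent (right, with 95% Clopper-Pearson intervals) by the background at the summit in fragments, for summits in wide domains (red) and in other domains (grey). At 10 to 20 fragments the share is 33.0% in wide domains and 19.3% in other domains.

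Within wide domains, CREBBP summits were denser in the acetylated regions, at 0.244 per kb, than between them. The gaps between regions of wide domains came to 9.03 Mb, close to the covered length, and held 325 summits, 0.0360 per kb, of which 13 were stronger ones. Gaps of other domains held 0.0389 summits per kb. The summit of most fragments lay in the widest region in 376 of the 647 wide domains that held a summit, 58.1% (54.2 to 62.0%), where the widest regions made up 55.7% of the covered length. This count includes domains of a single region, which hold it there by construction. In the 594 with 2 or more regions, it lay in the widest region in 323, 54.4% (50.3 to 58.4%), where those regions made up 52.4% of the length. In the same 594 it lay in the region of highest H3K27ac fold in 188, 31.7% (27.9 to 35.6%), where those regions made up 28.7% of the length. The length shares are pooled over domains, so longer domains weigh more, whereas each domain counts once in the shares of summits. Whether CREBBP peaked in the widest or most enriched region as often as length would give was therefore not tested. Within a region, 56.9% of summits of wide domains (54.8 to 58.9%) and 67.7% of summits of other domains (66.6 to 68.7%) lay in the middle 50%. These shares are relative to region width, which differed between the groups. In bp the order was reversed, with a median distance to the region edge of 1218 in wide domains and 565 in other domains. The H3K27ac fold of a wide domain and its summits per kb had a Spearman rho of 0.050 over 662 domains.

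The 30 widest domains covered 30.5 to 55.9 kb each, and all 30 held CREBBP summits, 244 in all (4 to 19 each, median 8). Of these summits 66 were stronger ones, in 26 of the 30 domains. The widest lay in TCF4, an E-protein transcription factor of B cells, at chr18:53082808-53179199, with 11 regions. It held 19 summits, the most of any wide domain, or 0.340 per kb, and none was a stronger one. Its summits had 6 to 26 fragments over backgrounds of 1.85 to 12.9, with folds of 1.68 to 3.50. The other domains of the 30 with no stronger summit were ZNF608, a zinc-finger gene, MIR4435-2HG, a long noncoding RNA gene, and EHD1, a gene of endosome recycling.

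The domain from FAM167A to BLK (BLK is a Src-family kinase) covered 48.0 kb and held 8 summits, of which 2 were stronger ones. PLCG2, a phospholipase downstream of the receptor, covered 46.9 kb with 7 summits, and its 2 stronger ones had 19 and 20 fragments. ID3, an inhibitor of E proteins, covered 45.5 kb with 7 summits of 15 to 43 fragments, and 2 were stronger ones. A domain between ZCCHC7 and GRHPR, where a distal enhancer of PAX5 is known, covered 43.6 kb. Its 8 summits had 10 to 44 fragments, and only the one of 22 fragments over a background of 6.47 was a stronger one. The neighbouring domain in the 3′ part of ZCCHC7 covered 39.7 kb with 15 summits, 5 of them stronger ones, although none had more than 17 fragments. There the highest fold, 5.92, stood over a background of 2.04. By construction q depends on background as well as fragments, so this is no finding about these domains.

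The domains ranked 7th to 10th in covered length lay at CXXC5, BTG2, BCL7A and DTX1. CXXC5, a zinc-finger gene, covered 43.5 kb with 9 summits. Its 5 stronger summits had 34, 37, 75, 34 and 27 fragments along the domain, with a fold of 5.41 at the highest. BTG2, an antiproliferative gene, covered 43.0 kb, and its 4 stronger summits had 45, 61, 35 and 54 fragments beside 4 weaker ones of 14 to 22. BCL7A, a chromatin-remodelling subunit, had 11 summits over 43.0 kb. The highest of these had 62 fragments and a fold of 6.34, and the next stronger one 28. DTX1, a regulator of Notch signalling, had 8 summits, of which the 3 stronger ones had 19, 22 and 38 fragments.

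**Figure D4:**
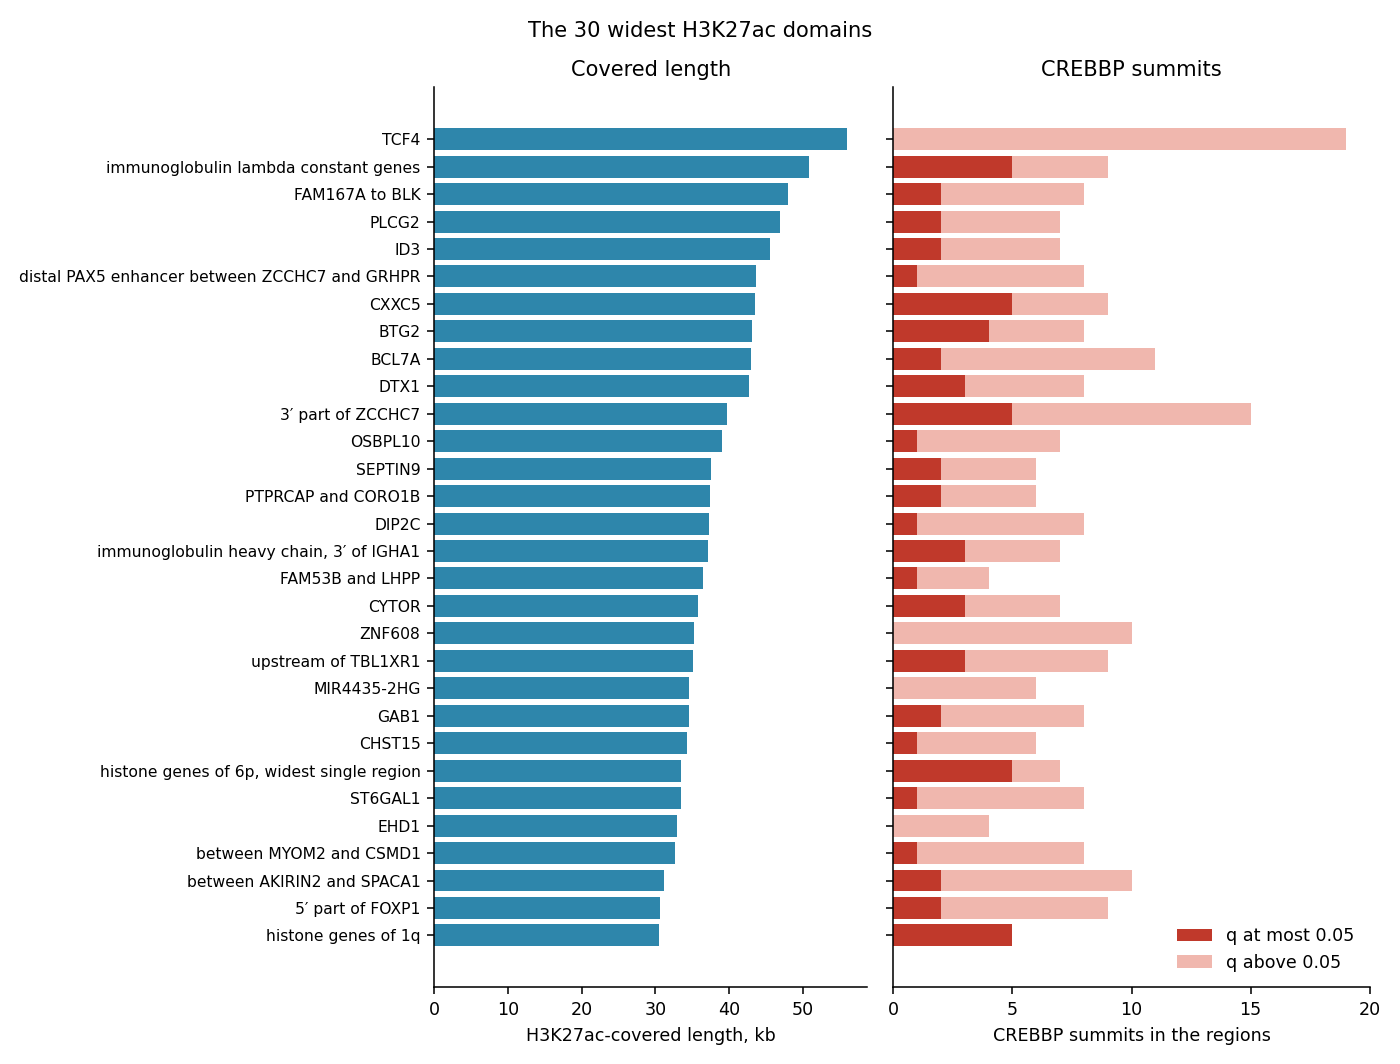
The 30 widest domains from the widest (top) to the narrowest, with H3K27ac-covered length in kb (left) and the number of CREBBP summits inside the regions (right), split into those of q at most 0.05 (dark) and above (light). TCF4, ZNF608, MIR4435-2HG and EHD1 have no dark bar.

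The 5 wide domains with the most fragments at a summit were 3 of immunoglobulin loci and 2 of small-RNA genes. The domain over the immunoglobulin lambda constant genes, chr22:23242224-23298200, had 9 summits in 50.9 kb. In order along the chromosome they had 10, 23, 15, 19, 15, 26, 89, 138 and 14 fragments, with folds of 6.46 and 7.14 at the highest pair. The heavy-chain domains 3′ of IGHA1 and 3′ of IGHA2, where the 3′ regulatory regions of the locus are known, each had 7 summits. The first had a pair of 128 and 166 fragments at folds of 5.34 and 5.63, and the second a pair of 138 and 139 fragments at folds of 5.001 and 4.84. Of the 23 summits of these 3 domains, 6 had 80 or more fragments. The heavy-chain domains lie in duplicated sequence, and how reads with several placements were handled is not given in the sources used here.

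Of the small-RNA genes, placed by their known positions, a U2 small nuclear RNA gene at the start of WDR74 had the highest fold of any summit in a wide domain. That domain covered 9.85 kb with 3 summits of 20, 144 and 24 fragments, and the middle one, at position 62609188 of chromosome 11, had a fold of 10.4. The domain from PER1 to AURKB, the wide domain of most regions with 15, covers a cluster of transfer RNA genes. Its summit of 45 fragments over a background of 3.76 had a fold of 9.67 at position 8076882 of chromosome 17, close to the known place of the small nucleolar RNA gene SNORD118. A transfer RNA cluster on the long arm of chromosome 1 had 5 summits, all stronger ones, of 61, 126, 153, 142 and 170 fragments. They were evenly spread, 6.51 to 8.30 kb apart, and stood over backgrounds of 32.3 to 85.0, so the folds were only 1.79 to 2.24. Repeat units of the cluster are near-identical, so these counts are uncertain. The domains at LRRC2 and 3′ of TRBC2, a T-cell receptor constant gene, also had high folds, 7.84 over 37 fragments and 7.61 over 105 fragments, each at 1 stronger summit.

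Histone genes made up 6 named wide domains, 5 on the short arm of chromosome 6 and 1 on the long arm of chromosome 1. Together they covered 152.8 kb and held 41 summits, of which 23 were stronger ones, and each domain held at least 1. That is 0.151 stronger summits per kb, beside 0.0596 over all wide domains. The widest was 1 unbroken region of 33.5 kb with summits of 34, 29, 34, 39, 55, 17 and 19 fragments, the first 5 of them stronger ones. The summit of 55 fragments, at position 27799328, is the one at the H4C12 promoter printed above. The domain on chromosome 1 had 5 summits of 72, 53, 41, 41 and 65 fragments, all stronger ones. Histone genes there exist in near-identical copies. These domains were grouped after their values were seen. On chromosome 6, 1 of them formed a run with another wide domain that was not named and is left out of these counts. That run, chr6:26155147-26250937, covered 40.1 kb and held 16 summits, 5 of them stronger ones.

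MIR142 lay in the wide domain at chr17:56405433-56430621, which covered 17.3 kb in 3 regions with an H3K27ac fold of 8.05. Its 5 summits had 25, 60, 42, 21 and 31 fragments, and all but the one of 21 were stronger ones. The summit of 60 fragments, at position 56409878, was the nearest to the microRNA. The domain of MIR650 covered 26.3 kb with 4 summits, none of them a stronger one. MIR155, MIR150, MIR17 and MIR146A, which also act in B cells, lay in no wide domain, and neither did MIR181A1, MIR21, MIR28, MIR34A, MIR223 and MIR122.

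**Figure D5:**
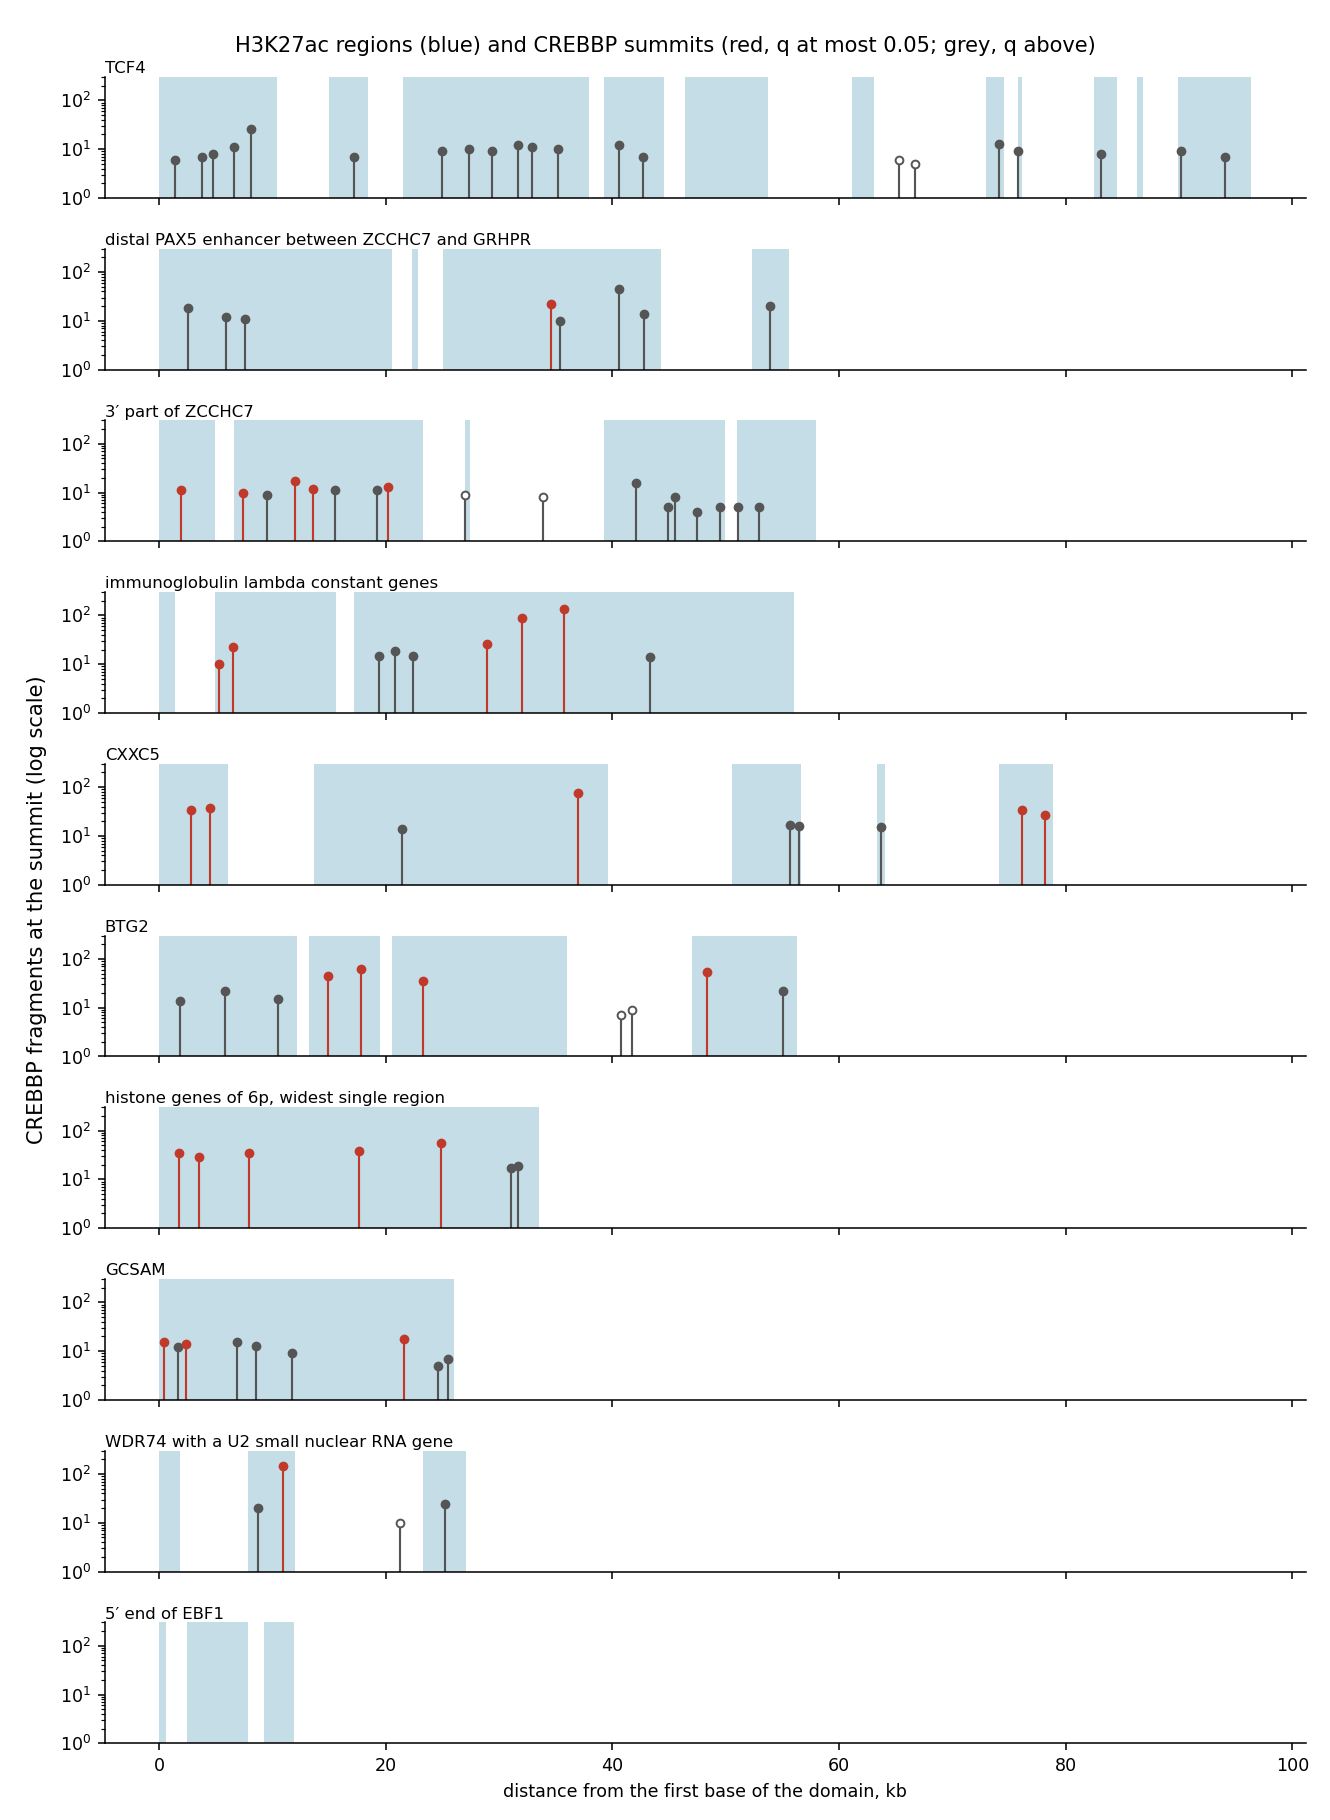
H3K27ac regions (blue) and CREBBP summits (stems) of 10 wide domains, by distance in kb from the first base of the domain, with the fragments at each summit on a log scale. Red stems have q at most 0.05, grey stems have q above, and open circles lie outside the regions. TCF4 has 19 summits in its regions and none in red, the immunoglobulin lambda domain has summits of 89 and 138 fragments next to each other, and the 5′ end of EBF1 has none.

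Gene lists were then read for wide domains within 50 kb of the gene body. No share over all genes is given, since no hg19 annotation was used. Of 25 B-cell transcription factors, 18 had a wide domain, all 18 of these with a CREBBP summit and 10 with a stronger one. Over all wide domains the shares were 97.7% and 55.9%, so these counts lie near the general share, and a gene with several wide domains was counted once over all of them. POU2AF1, the octamer coactivator of B cells, had 7 summits in 2 domains, with a stronger one of 46 fragments and fold 3.16 at its start. TCF3 had 7 summits, 3 of them stronger ones, and the one at its start had 35 fragments and fold 2.77. PAX5, the master regulator of B-cell identity, had 2 domains of 26.1 kb in all, and the summit at its start, 23 fragments at a fold of 1.85, was not a stronger one. EBF1 had 4 domains of 40.9 kb in all with 6 summits, but the domain over its 5′ end, 8.55 kb wide, held none. IKZF1, SPIB, IRF8, IRF4, BACH2, ETS1, TCF4 and BCL11A had wide domains without a stronger summit. SPI1, BCL6, FOXO1, MEF2C, RUNX3, LMO2 and PRDM1 had no wide domain within 50 kb, and more distant ones were not assigned to genes. On the chromosome of BCL6 and beyond that window, a wide domain at chr3:187653526-187700122 covered 16.3 kb. It held 5 summits, 2 of them stronger ones.

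Of 25 genes of the B-cell surface and receptor signalling, 14 had a wide domain and 11 of these a stronger summit, beside 55.9% of all wide domains. BLK, RHOH and GNA13 had 2 domains each, which gives more room for one. CD79B, the beta signalling chain of the B-cell receptor, had 5 summits in 20.1 kb of 14, 21, 18, 42 and 24 fragments. The one of 42, fold 3.56, lay at its start and was the only stronger one. SYK had 8 summits in 20.3 kb, with 31 fragments and fold 3.22 at its start. MS4A1, CD79A, CD22, CD40 and CD74 had no wide domain within 50 kb, although their starts lay in H3K27ac regions of other domains. At MS4A1, which encodes CD20, that start carried 32 fragments over a background of 3.895, a fold of 6.74. That fold was higher than at the starts of CD79B and SYK, where the backgrounds were also higher, 11.09 and 8.936.

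Of 22 lymphoma mutation targets and regulators, 10 had a wide domain and 8 of these a stronger summit, beside 55.9% of all wide domains. Genes with more than 1 domain, BCL2 among them, have more room for one. BCL2 had 4 wide domains in a row, 60.9 kb in all, with 10 summits, 5 of them stronger ones. In its 3′ part the summits had 45, 60, 90, 49 and 32 fragments over backgrounds of 16.04 to 52.7. Its start carried 57 fragments at a fold of 2.09. MYC, AURKA, CREBBP and EP300 had no wide domain within 50 kb. The start of MYC, in an H3K27ac region of an other domain, had 37 fragments at a fold of 1.41, that of AURKA 21 at 1.82, that of EP300 23 at 2.15, and that of CREBBP itself 20 at 4.29, of which only the last was a stronger summit.

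For comparison, 3 of 15 broadly expressed genes had a wide domain, MALAT1 and NEAT1, long noncoding RNA genes, and MCL1, an inhibitor of apoptosis. The start of MALAT1 had 75 fragments at a fold of 3.90. Of 26 genes that mark other cell types, 1 had a wide domain within 50 kb, MPO, a myeloid enzyme gene. That domain is the one of MIR142, which lies off the body of MPO. No start of the 26 genes lay in any H3K27ac region. The same held for 6 of the 25 B-cell transcription factors (BCL6, MEF2C, ETS1, TCF4, FLI1 and RUNX3) and 2 of the 25 surface and signalling genes (CR2 and PRKCB). It also held for 2 of the 22 lymphoma genes (SGK1 and KMT2D). The placed length of KMT2D was not within 10% of its RefSeq length, so its start is less certain. Among the 26, the same is true of GATA3, KRT8, NEUROD1 and TWIST1. Of the B-cell markers, the starts of CD79B, PAX5 and EBF1 lay in wide domains and those of MS4A1 and CD79A in regions of other domains.

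The 15 wide domains with no CREBBP summit covered 8.04 to 13.7 kb and ranked from 229th to 661st in covered length. Their H3K27ac fold ran from 2.75 to 13.03, and 1 CREBBP peak overlapped a region without placing its summit there. The 3 widest lay at FGD4, a regulator of a small GTPase, with 13.7 kb, at DENND2D and CHI3L2 with 12.7 kb and at SLC7A5, an amino acid transporter, with 11.2 kb. Others, named after their values were seen, lay at the 5′ end of EBF1, and at ETV6, HNRNPF and TPD52. The lack of a summit holds for these domains and not for every domain of the gene. Over all wide domains within 50 kb, SLC7A5 had 2 summits, both stronger ones, ETV6 had 4 and EBF1 had 6. FGD4, DENND2D, CHI3L2 and HNRNPF had none. The start of TPD52, in an other domain, carried 32 fragments at a fold of 1.96.

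Some wide domains lay near one another. Within 100 kb of another wide domain, 202 of the 662 formed 91 runs, 19 of them of 3 or more domains. No like share was worked out for other domains, so whether wide domains lie nearer to one another was not tested. The run at BCL2 held 4 domains, the run at the immunoglobulin lambda locus 3 with 86.7 kb covered, and the run at the heavy-chain locus 3 with 77.3 kb and 7 stronger summits. By chromosome, 9.86% of the domains of chromosome 21 were wide, 8.18% of chromosome 22 and 8.14% of chromosome 18, against 3.48% of chromosome 7.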

How the data were processed

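The submitters' processing notes name the tools fastp, Bowtie2, STAR and MACS2 and the build hg19. Roles, settings, the control and the depth were not given in these sources. The authors deposited 1 list of narrow CREBBP peaks (215598 used, of which 3901 had q at most 0.05) and 1 list of broad H3K27ac regions, each with a score, a fold enrichment (a ratio to expected background), −log10 p and −log10 q. The deposited CREBBP list also gives a summit position. Chromosomes 1 to 22 and X were used, without 128 CREBBP peaks and 17 H3K27ac regions elsewhere.

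Regions within 12.5 kb were joined and the top 5% by covered length taken. Fragments and background at a summit were solved from fold, taken as fragments plus 1 over background plus 1, and p, taken as the upper Poisson tail, and matched −log10 p within 0.001 for all 10264 summits in regions. The solution and the joining were tested on simulated data. Positions are hg19, counted from 1. Gene positions are known hg19 positions rounded to 1 kb, with 1 start per gene. All 178 genes placed lay on the same chromosome in the RefSeq table of GRCh38.p14, and 150 had a like length, within 10%. With 1 sample per group no test was made. The rule named the 30 widest domains, the 5 with most stronger summits, fragments or fold (ties by covered length; 7 domains tied at 5 stronger summits), the 3 widest without a summit and those at listed genes, of which 1 is not reported here. Members and lists were chosen with earlier results of these data known. Alternatives changed the joining, ranking, threshold, region and peak filters and the way a peak is placed. Tools were Python 3.11.15, with numpy 2.4.6, matplotlib 3.10.9, scipy 1.17.1 and pandas 2.3.3.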

Additional observations from a re-analysis of the deposited data

How the results depend on the processing

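With 1 sample per group there is no replicate error. No paired analysis was possible because there was only 1 sample in a group. Depth is unknown, and gene names rest on rounded positions.

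The share of wide domains with a CREBBP summit, 97.7%, was 89.4% without joining of regions, 94.9% with domains ranked by span, 95.1% with the top 10% of domains and 95.2% with the upper 50% of CREBBP peaks by p. The share with a stronger summit, 55.9%, was 40.0% without joining, 47.6% by span and 45.7% with the top 10%. The density ratio of wide over other domains, 0.759, was 0.806 by span and 0.708 over the whole span with gaps included. For stronger summits that ratio, 0.940, was 0.840 with gaps included, with an interval of 0.762 to 0.926. Without joining it was 1.02, within the interval of the value reported. The share whose summit of most fragments lay in the widest region, 58.1%, was 48.3% by span, 63.4% with the top 10% and 67.0% when only the upper 50% of regions by H3K27ac q were kept. Without joining that share has no value, since each domain is then 1 region. The values under the other alternatives, a 1 bp overlap among them, lay within the 95% intervals of the values reported.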
